A study of Mus musculus with 2 samples.

Results

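Single-cell ATAC-seq (assay for transposase-accessible chromatin) was used here to describe the distal regions of the mouse genome that carried a transposition count in most nuclei of mammary organoids. Both groups consisted of primary organoids of C57BL/6J mice with the genotype shTRPS1.34 ki/+; CAG-rtTA3 tg/+, in which an shRNA against Trps1 sits in the Col1a1 locus and is switched on by doxycycline through a transactivator driven by the ubiquitous CAG promoter. One group was treated with doxycycline at 0.1 µg/ml (DOX) and the other with ethanol (EtOH), both for 7 days. One legend of the study names wild-type mice for this experiment, and the labels were followed. The age of these mice is not among the labels used here, and the study gives only an age range in weeks for its mice in general. Each group is 1 library made from cells pooled from several mice, with 3071 DOX and 3104 EtOH nuclei, so no difference between the groups had a replicate check and no test was made. RNA was not measured, so the depletion of Trps1 could not be checked in these libraries.

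The regions were selected on their measured values. Overlapping peaks of both libraries on chromosomes 1 to 19 were merged, and a region was kept if it had a peak of both libraries, a midpoint 1 to 200 kb from the nearest transcription start site (TSS) of a protein-coding gene (GENCODE M21, mm10), and a count in at least 50% of the DOX and at least 50% of the EtOH nuclei. Of 268016 merged regions, 170665 were shared by both libraries and 137223 of these were distal. The rule kept 652 regions, which are 0.475% of the distal shared regions and are called members below. At the TSS of coding genes, by contrast, 6183 of 21780 shared regions (28.4%) had a count in at least 50% of nuclei of both libraries.

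Chromatin that is accessible far from promoters usually marks enhancers, which are active in few cell types, or sites bound by CTCF, the factor that organises chromatin loops in nearly every cell type. Promoters of widely expressed genes are different: they often lie in CpG islands, stretches in which the CpG dinucleotide is not depleted as it is in most of the genome, and they bind factors such as SP/KLF, NFY and ETS proteins. AP-1, a dimer of FOS and JUN proteins, binds many enhancers of epithelial cells and is induced within minutes by growth signals.

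The central bases of 4 of the most widely open members are printed first to show their CpG pairs. Clec11a, Wnt7b and Fbrs name the nearest coding genes of the 3 members with the highest lower share, the smaller of the DOX and EtOH shares of nuclei, among members with fewer than 50 counts in any DOX nucleus. The fourth lies in the ribosomal RNA locus of chromosome 17 and is treated separately below. Capitals mark every CpG, and all sequences are the plus strand of GRCm38 from RefSeq, at chr7:44305116-44305315, chr15:85634585-85634784, chr7:127477926-127478125 and chr17:39848129-39848328.
Clec11a: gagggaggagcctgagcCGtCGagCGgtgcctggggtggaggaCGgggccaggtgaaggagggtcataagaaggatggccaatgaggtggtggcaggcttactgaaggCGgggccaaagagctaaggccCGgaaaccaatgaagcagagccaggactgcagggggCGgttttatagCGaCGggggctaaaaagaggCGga
Wnt7b: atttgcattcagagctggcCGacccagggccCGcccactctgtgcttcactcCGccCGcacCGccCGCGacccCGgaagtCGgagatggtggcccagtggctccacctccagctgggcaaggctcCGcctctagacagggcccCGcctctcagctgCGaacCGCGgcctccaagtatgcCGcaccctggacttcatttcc
Fbrs: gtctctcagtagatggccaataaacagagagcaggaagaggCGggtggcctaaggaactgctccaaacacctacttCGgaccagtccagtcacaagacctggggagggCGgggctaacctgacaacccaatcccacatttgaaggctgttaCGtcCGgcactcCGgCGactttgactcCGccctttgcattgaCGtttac
rRNA locus: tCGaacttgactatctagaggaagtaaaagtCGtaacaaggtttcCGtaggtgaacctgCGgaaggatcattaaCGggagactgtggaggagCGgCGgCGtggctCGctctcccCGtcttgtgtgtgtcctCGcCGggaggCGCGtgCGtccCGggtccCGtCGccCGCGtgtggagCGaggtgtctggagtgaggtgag
These stretches of 200 bases held 10, 15, 9 and 21 CpG pairs.

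A further 4 members are shown for the motif they carry, each being the member with the highest lower share that holds the motif and whose gene is not shown above. They lie at chr9:57073374-57073673 (Sin3a, SP/KLF motif), chr13:111725399-111725698 (Mier3, NFY motif on the minus strand), chr8:69716812-69717111 (Zfp869, AP-1 motif) and chr7:141221774-141222073 (Rassf7, CTCF motif on the minus strand). Capitals mark the motif.
Sin3a: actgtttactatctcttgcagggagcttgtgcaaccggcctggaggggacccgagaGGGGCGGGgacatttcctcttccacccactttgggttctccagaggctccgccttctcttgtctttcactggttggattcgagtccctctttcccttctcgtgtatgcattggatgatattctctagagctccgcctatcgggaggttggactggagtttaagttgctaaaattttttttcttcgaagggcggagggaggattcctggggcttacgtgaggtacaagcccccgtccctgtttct
Mier3: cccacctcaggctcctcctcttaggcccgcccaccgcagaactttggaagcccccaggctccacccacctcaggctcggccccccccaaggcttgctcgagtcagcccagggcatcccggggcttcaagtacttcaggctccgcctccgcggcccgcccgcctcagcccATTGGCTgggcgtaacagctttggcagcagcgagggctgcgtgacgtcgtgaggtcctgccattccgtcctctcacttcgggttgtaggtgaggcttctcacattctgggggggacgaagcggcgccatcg
Zfp869: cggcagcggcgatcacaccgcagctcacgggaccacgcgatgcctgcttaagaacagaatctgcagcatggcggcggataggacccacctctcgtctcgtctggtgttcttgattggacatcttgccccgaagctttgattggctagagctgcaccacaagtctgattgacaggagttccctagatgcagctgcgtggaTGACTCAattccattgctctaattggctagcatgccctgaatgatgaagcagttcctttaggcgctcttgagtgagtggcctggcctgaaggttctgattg
Rassf7: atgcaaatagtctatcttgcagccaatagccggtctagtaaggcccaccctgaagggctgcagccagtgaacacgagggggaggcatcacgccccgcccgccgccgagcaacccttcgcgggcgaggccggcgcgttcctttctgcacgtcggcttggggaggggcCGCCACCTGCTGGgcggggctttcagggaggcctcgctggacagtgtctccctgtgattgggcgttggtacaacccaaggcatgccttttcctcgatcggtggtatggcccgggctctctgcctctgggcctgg
The midpoint of the Mier3 region lies 32 bp from the annotated TSS of the antisense RNA Gm15287, and that of the Rassf7 region 431 bp from Mir210, a microRNA gene induced by low oxygen.

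The members had a median share of 62.2% of DOX nuclei and 58.7% of EtOH nuclei. The lower and upper quartiles were 56.5% and 69.04% in DOX and 54.2% and 65.3% in EtOH, and the highest shares were 90.4% in DOX and 94.4% in EtOH. The most widely open member outside the ribosomal RNA locus lay in an intron of Clec11a, which encodes a growth factor of bone and blood progenitors, 1686 bp downstream of a TSS (chr7:44304736-44305696). It had counts in 2777 DOX nuclei, 90.4% with an exact Clopper-Pearson 95% interval of 89.3 to 91.4%, and in 2866 EtOH nuclei, 92.3% (91.3 to 93.2%). These intervals, like all others given here, cover counting error only.

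The next was an intergenic region 52212 bp upstream of Wnt7b, a Wnt ligand, at chr15:85634242-85635128. It was open in 90.0% of DOX (88.9 to 91.0%) and 88.1% of EtOH nuclei (86.9 to 89.2%). A region 1173 bp upstream of Fbrs followed with 89.0% and 87.7%, then one 603 bp from the TSS of the unclassified transcript Gm7461, between coding genes with Zfp958 the nearest, with 86.7% and 85.2%. A region in an intron of Sin3a, the scaffold of a histone deacetylase complex, had 86.4% and 84.0%. The remaining regions among the 10 with the highest lower share were 2 of the ribosomal RNA locus, 1 at the transcript Gm5112 upstream of Foxj2 (86.3% and 83.3%), 1 near the end of chromosome 19 (Gm21060, 84.7% and 83.2%) and 1 in an exon of Angptl6, a secreted angiopoietin-like protein (85.3% and 83.1%). Apart from the ribosomal RNA locus, where EtOH was higher, both libraries had close shares at each of these regions.

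Just inside the threshold were regions near Guca1a, Trim43c and Zfp362 (each 50.03% in EtOH) and near H2-T24 and Arid5a (each 50.02% in DOX). Just outside it were regions near Dad1 (49.98% in DOX), Gramd2 (49.95% in DOX), Disc1 (49.94% in EtOH), Rnf19b (49.94% in EtOH) and Bhlhe40 (49.92% in DOX). The boundary therefore passed through a continuous range of shares. In all, 997 distal regions reached 50% in DOX and 1243 in EtOH, and the members were 65.4% of the first and 52.5% of the second.

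**Figure D1:**
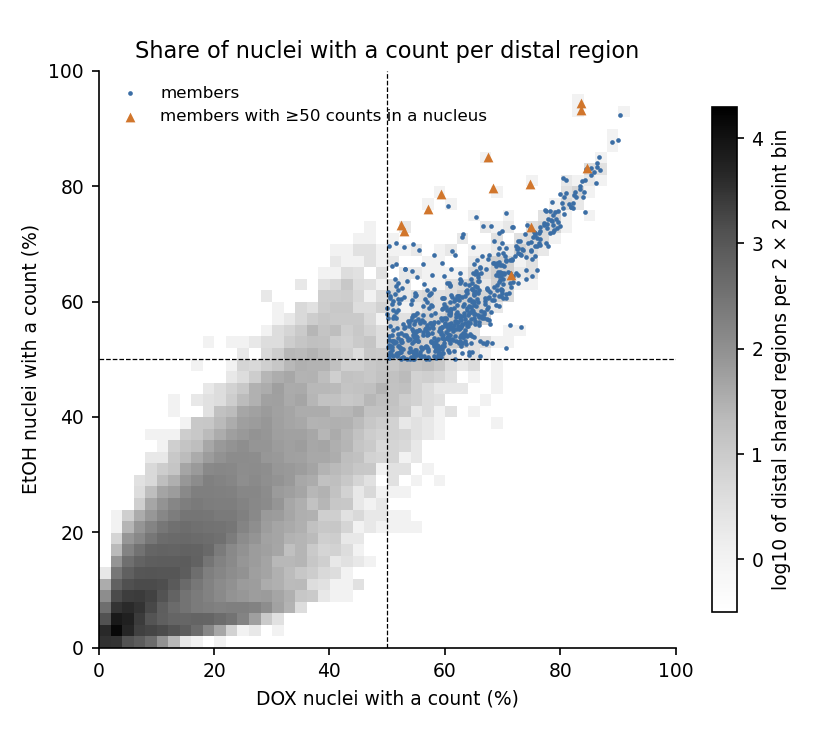
Share of nuclei with a count in DOX (x axis, percent) against EtOH (y axis, percent) for the distal shared regions (grey bins of 2 by 2 points, shaded by the log10 number of regions), with the 652 members as points and the 12 members with at least 50 counts in a single DOX nucleus as triangles. Dashed lines mark 50%, and most points follow a narrow band while 9 of the triangles lie above it.

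Whether a region counts as open in most nuclei depended on depth. The median nucleus held 68660 counts in shared regions in DOX and 62560 in EtOH, and the number of members open in a nucleus followed its count total (Spearman's rho across nuclei of 0.98 in both libraries, points which share the library and the depth). The median DOX nucleus had 69.2% of the members open and the median EtOH nucleus 65.5%, with a 5th to 95th percentile range of 17.3 to 89.1% in DOX and 18.9 to 88.2% in EtOH. When each nucleus was thinned to 10000 fragments, the median share per member was 28.7% in DOX and 27.5% in EtOH. The members are thus regions that were open in most nuclei at the depth of these libraries, and no share of nuclei in which a region was inaccessible can be read from them.

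A share can also be set beside the one that depth alone would give if every nucleus drew fragments from a region in proportion to its total. The members fell a median of 2.28 points short of that share in DOX and 1.88 points in EtOH. Distal regions open in 25 to 50% of nuclei of both libraries fell short by 4.62 and 3.05 points, although their shares were lower. The 591 distal regions that reached 50% in EtOH alone fell short by 11.1 points in DOX. These sets were chosen by the same shares that enter the shortfall, so their order follows in part from the selection and is only a description.

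By position, 452 members were intergenic (69.3%), 155 intronic (23.8%) and 45 exonic (6.90%), against 47.0, 48.7 and 4.26% of all distal shared regions. The median distance to the nearest coding TSS was 10250 bp, with 319 members (48.9%) closer than 10 kb and 95 (14.6%) further than 50 kb, where all distal shared regions had 33.7 and 23.6%. Of the members 341 lay upstream and 311 downstream of that TSS. Counted per 1000 distal shared regions, they were most frequent on chromosome 17 (8.11), chromosome 11 (7.57) and chromosome 7 (7.07) and least frequent on chromosome 18 (2.445).

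Many members were distal to coding genes but not to others. A TSS of a non-coding gene or pseudogene lay within 1 kb of 164 members (25.2%), against 3.79% of all distal shared regions and 7.78% of those open in 25 to 50% of nuclei. The TSS belonged to lincRNAs in 78 cases, to processed transcripts in 26, to antisense RNAs in 16, to unclassified transcripts in 13 and to small nuclear RNAs of the splicing machinery and its relatives in 8. Examples were the TSS of Crnde upstream of the developmental factor Irx5 (80.0% of DOX and 78.7% of EtOH nuclei), of the snoRNA host Snhg8 (82.7% and 78.2%), of the long non-coding RNA Lncpint (68.1% and 52.8%), of the U1 gene Rnu1a1 (68.9% and 66.1%) and of the minor-spliceosome gene Rnu11 (65.3% and 57.9%). A further 74 members lay 1 to 2 kb from a coding TSS with no non-coding one nearer than 1 kb, and 414 lay further from any.

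The members' sequences lay between those of distal regions and of promoters. Over the central 300 bp, their median GC content was 60% and their median CpG ratio, the observed number of CpG divided by the number expected from the C and G content, was 0.595. All distal shared regions had 47.7% and 0.192, distal regions open in 25 to 50% of nuclei 52.3% and 0.260, and TSS regions open in most nuclei 66.3% and 0.863. A CpG ratio of at least 0.6 was found in 323 members (49.5%), 2.88% of all distal shared regions, 10.4% of the 25 to 50% group and 91.8% of the open TSS regions. It was more frequent at the non-coding TSS (70.1% of 164) than among the 414 members away from any TSS (39.4%), where it was still above the 2.88% of all distal regions.

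Motifs were searched on both strands of the central 300 bp, each by its letters or, for CTCF and NRF1, by the name of its longer pattern. The SP/KLF motif GGGGCGGG was held by 146 members (22.4%), against 1.96% of all distal shared regions and 41.3% of the open TSS regions. The NFY motif AGCCAAT was held by 84 (12.9% against 4.35%), the CRE motif TGACGTCA by 25 (3.83% against 0.516%), the ETS motif CCGGAAGT by 22 (3.37% against 0.485%), the YY1 motif AAGATGGCG by 11 (1.69% against 0.184%) and the NRF1 motif by 4 (0.613% against 0.0488%). These are motifs of promoters, several of them rich in C and G as the members are.

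Motifs of the factors that mark mammary and other lineages were less frequent in members than in all distal shared regions. The motif of GATA factors (AGATAA) was found in 19 members (2.91% against 14.0%), RUNX (TGTGGTT) in 43 (6.60% against 11.9%), TEAD (GGAATGT) in 24 (3.68% against 7.14%), SOX (ACAATGG) in 10 (1.53% against 5.61%), FOX (TGTTTAC) in 20 (3.07% against 5.69%) and STAT (TTCNNNGAA) in 47 (7.21% against 10.4%). CTCF was found in 40 members (6.13%) and 7.72% of all distal shared regions, while over whole regions the order turned, with 11.96% of members and 10.4% of all distal shared regions. Distal regions open in 25 to 50% of nuclei were above the members both ways, with 10.2% in the central 300 bp and 14.2% over whole regions. AP-1 (TGANTCA) was found in 133 members (20.4% against 22.2% of all distal shared regions and 3.48% of the open TSS regions). The SP/KLF and CTCF matches can overlap each other, and 7 members held both. A match describes the letters and not binding, and GC content moves with all these shares; its part in them was not tested.

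**Figure D2:**
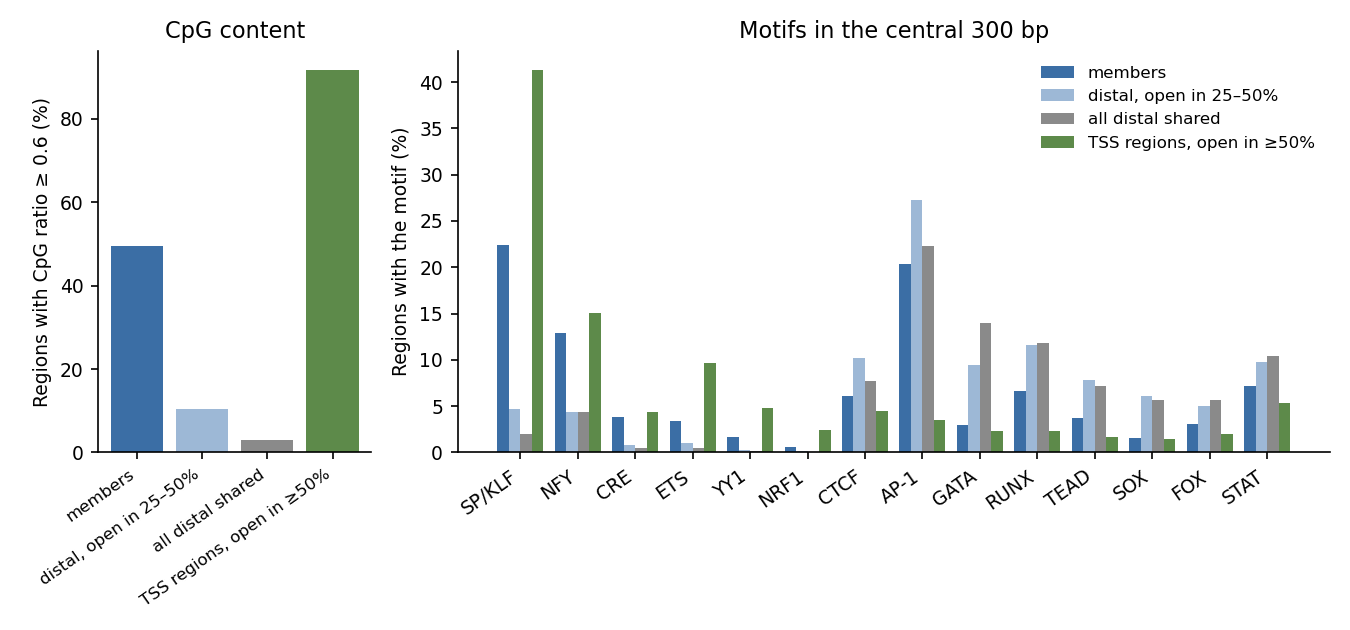
Percent of regions with a CpG ratio of at least 0.6 (left) and with each motif in the central 300 bp (right) for the members, distal regions open in 25 to 50% of nuclei of both libraries, all distal shared regions and TSS regions open in at least 50% of nuclei. Members lie between the distal and the TSS regions for SP/KLF (22.4%), NFY and CRE, and near the distal regions for AP-1 (20.4%).

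The AP-1 motif differed in frequency with the CpG ratio and the position of the members. It was held by 113 of the 329 members with a CpG ratio under 0.6 (34.35%) and by 20 of the 323 above it (6.19%). It was held by 111 of the 414 members away from any TSS (26.8%), by 15 of the 164 at a non-coding TSS (9.15%) and by 7 of the 74 that lay 1 to 2 kb from a coding TSS (9.46%). The SP/KLF motif was arranged the other way, in 33.75% of the CpG-rich and 11.25% of the CpG-poor members. Among the motifs searched, SP/KLF was therefore the most frequent in the CpG-rich and AP-1 in the CpG-poor members. The NFY motif hardly differed, with 13.6% of the CpG-rich and 12.2% of the CpG-poor members. The SP/KLF motif itself contains a CpG, which favours it above a cut on the CpG ratio. That cut of 0.6 lies near the members' median ratio of 0.595, and 2 separate groups were not shown. AP-1 led in other distal sets too, with 22.2% of all distal shared regions and 27.2% of those open in 25 to 50% of nuclei, so its lead was not particular to the members.

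The members had 586 different nearest coding genes, 53 of which were nearest to more than 1 member. Gse1, Nanos3 and Ptma were each nearest to 4 members, and 3 each had Fos, Frmd8, Irf2bp2, Irf2bpl, Kdm6b, Ralgds and Spen, loci that are named for this number after their values were seen. At Ptma, which encodes the abundant nuclear protein prothymosin alpha, 3 regions lay 39153, 22432 and 1397 bp upstream of the TSS and 1 lay in an intron downstream of it. Their shares were 78.9, 75.4, 67.3 and 54.3% in DOX and 72.4, 71.1, 62.2 and 52.8% in EtOH, in that order, so the 2 regions furthest from the promoter were the most widely open. At Gse1 the 4 regions differed in direction, with log2 ratios of -0.10, -0.39, -0.28 and 0.72, and the first and second of them were open in 12.3 and 11.5% of immune-like nuclei at equal depth where the last was open in 56.8%. In all, 141 members had another within 50 kb and 64 within 10 kb.

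The AP-1 and immediate-early genes, a list of 21, were nearest to 13 members (1.99%) and to 0.274% of all distal shared regions. At Fos, a subunit of AP-1, a region 18514 bp upstream was open in 81.6% of DOX and 77.0% of EtOH nuclei, one 11174 bp downstream in 77.8% and 72.7%, and one 1624 bp upstream in 55.1% and 53.9%. The region 1337 bp upstream of Junb, another AP-1 subunit, had 73.1% and 70.6%. Regions upstream of Ier3 (69.2% and 68.3%), Jun (70.2% and 64.9%) and Ier2 (68.9% and 64.6%) followed, at distances of 8304, 109196 and 1262 bp. The Jun region lay closer to a TSS of the non-coding Gm28096, at 9678 bp, and is linked to Jun only as the nearest coding gene. The rest had Fosb, Ier5, Egr1 or Egr3 as the nearest coding gene or were second regions of Ier3 and Jun. Of these 13 regions named by immediate-early genes, 1 held an AP-1 motif in its central 300 bp, the one 8304 bp upstream of Ier3. The motif was held by 20.4% of all members and 22.2% of all distal shared regions, and 13 regions are too few to set apart from these shares.

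Mammary transcription factors were nearest to 3 members (0.460% against 0.555% of all distal shared regions). These were an intronic region of Tfap2a (70.6% of DOX and 67.1% of EtOH nuclei), one near Gata3, the factor of luminal identity, (63.8% and 62.0%) and one 5480 bp downstream of Id1 (66.0% and 53.2%). The Gata3 region lay 1122 bp upstream of the nearest TSS of that gene and within an intron of a coding gene. Actin and adhesion genes were nearest to 5 members (0.767% against 0.123%). They were 2 regions upstream of Actg1, which encodes cytoplasmic gamma actin (70.7% and 69.2%, 66.7% and 52.9%), 2 in introns of Myh9, a non-muscle myosin (57.25% and 55.5%, 50.5% and 52.2%), and 1 near Cttn, which encodes the actin-binding protein cortactin (56.9% and 55.9%). The Cttn region lay upstream of the nearest TSS of that gene and within an intron of a coding gene.

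The study's luminal mature genes were nearest to 27 members (4.14% against 2.72%), its luminal progenitor genes to 15 (2.30% against 2.18%) and its actin-related TRPS1 targets to 9 (1.38% against 0.681%). Of the 27, 5 had Fos or Jun and 2 had Actg1 as the nearest coding gene, and these are also counted in the lists above. Genes whose symbols start with Rpl, Rps, Eif or Psm, a label for translation and the proteasome, were nearest to 8 members (1.23% against 0.635%), of which 2 were at Rps6ka1 and 1 at Eif2ak3, both kinases. The TSS of the nearest gene was itself open in at least 50% of nuclei of both libraries for 328 members (50.3%), against 35.7% of all distal shared regions.

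The ratio of DOX to EtOH was computed from the counts of a region summed over nuclei and scaled to the same total in shared regions. The rule asks for a high share in both libraries, so large ratios were limited from the start and the ratios are a description. No member was at least 2-fold higher in DOX, where 14.3% of all distal shared regions with at least 100 counts were, and none was at least 2-fold lower, where again 14.3% were. The median log2 ratio of the members was 0.09, with quartiles of -0.07 and 0.20 and a range of -0.83 to 0.72. A ratio within 1.25-fold was found for 549 members (84.2%), against 31.3% of all distal shared regions, 59.1% of distal regions open in 25 to 50% of nuclei and 94.05% of open TSS regions, where the 25 to 50% group and the open TSS regions were limited by a like rule. The members also held more counts per region. Their median was 35.04 CPM (counts relative to the library's total in shared regions) in DOX and 33.09 in EtOH. All distal shared regions had medians of 2.284 and 2.337 CPM. The part of this difference in counts in the shares within 1.25-fold and 2-fold apart was not tested. The counting interval lay above 0 for 354 members, below 0 for 158 and over 0 for 140. Over all distal shared regions it lay above 0 for 28.8% and below 0 for 44%, the opposite balance.

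The ratio differed with the kind of member. The CpG-rich members had a median log2 ratio of 0.15 and were above 0 in 268 of 323 cases (83.0%). The CpG-poor members had a median of -0.01 and were above 0 in 163 of 329 cases (49.5%), and the members with an AP-1 motif had a median of -0.01 (66 of 133 above 0). All distal shared regions had a median of -0.16 and were above 0 in 41.1% of cases, and open TSS regions had a median of 0.13 (88.2% above 0). Setting the median of all shared regions to 0 in place of the fixed total moved every log2 ratio up by 0.13, which puts the medians of the CpG-poor and the AP-1 members above 0 and leaves the difference between the groups as it was. Immune-like nuclei, a class described below, numbered 1289 in DOX and 283 in EtOH. At equal depth CpG-rich members had median shares of 35.6% in immune-like and 29.6% in luminal progenitor-like nuclei, and CpG-poor members 26.05 and 27.06%. With equal nuclei per cluster the median log2 ratio over all members was 0.015, a value not split by kind. The part of the cell classes in these differences was not tested.

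The 5 members with the highest ratios lay in an intron of Gse1, at Lncpint upstream of Mkln1, upstream of Irf2bp2, upstream of Tut7 and in an intron of Bach2, a repressor known from lymphocytes. The Gse1 region (chr8:120563668-120564560) had 52.8 CPM (counts relative to the library's total in shared regions) in DOX and 32.01 in EtOH, a log2 ratio of 0.72 (counting interval 0.66 to 0.79). The others had log2 ratios of 0.64, 0.62, 0.60 and 0.60. The groups also differed in the cells they held: 1289 DOX and 283 EtOH nuclei were immune-like, by clusters made without the members and named by marker genes as described below. At equal depth the Gse1 region was open in 56.8% of immune-like and 18.3% of luminal progenitor-like nuclei, and the Bach2 region in 39.8 and 18.6%. Within the immune-like nuclei alone the log2 ratios were -0.22 at Gse1, 0.18 at Lncpint, -0.06 at Irf2bp2, -0.13 at Tut7 and -0.09 at Bach2. Within the hormone-sensing luminal-like nuclei they were 0.14, 0.29, 0.35, 0.07 and 0.29 in the same order, so the Lncpint region was above 0 in both classes.

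With equal numbers of nuclei of both libraries drawn from each of the 6 clusters that held at least 50 nuclei of both, 655 nuclei a library, the log2 ratios of these 5 members were 0.01 at Gse1, 0.23 at Lncpint, 0.16 at Irf2bp2, 0.04 at Tut7 and 0.02 at Bach2. Over all members the median became 0.01, and 638 (97.9%) lay within 1.25-fold, against 57.8% of the 107149 distal shared regions with at least 100 counts in these nuclei. Over all nuclei 31.3% of all 137223 distal shared regions lay within 1.25-fold, with no filter on counts, so these 2 shares come from unlike sets of regions. The draw left out cluster 2, with 1371 of the 3071 DOX nuclei, and cluster 8. The part of the equal draw, the clusters left out, the count filter and the members' higher counts in these differences was not tested.

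**Figure D3:**
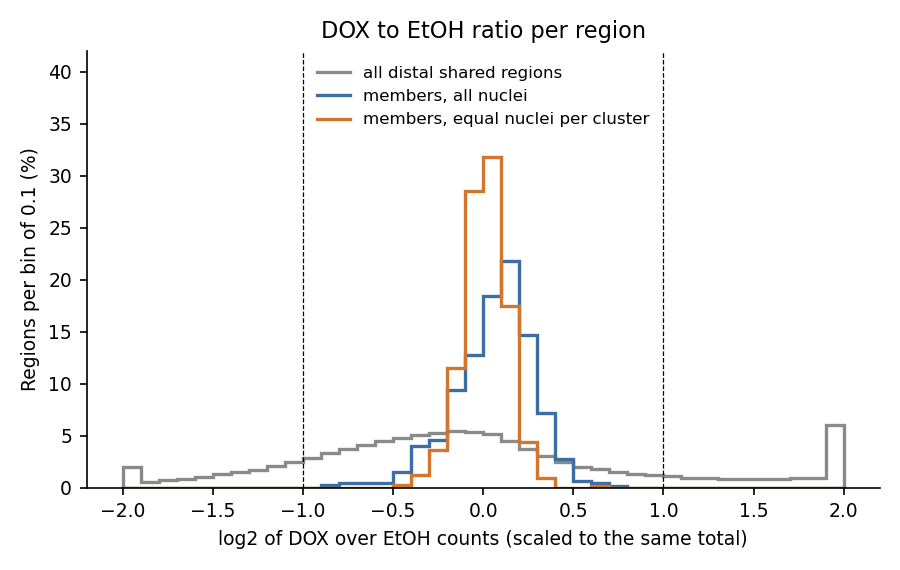
Percent of regions (y axis) per bin of 0.1 in the log2 ratio of DOX to EtOH counts (x axis) for all distal shared regions, the members over all nuclei and the members with equal numbers of nuclei per cluster. The outermost bins collect everything beyond them, dashed lines mark 2-fold, no member lies beyond those lines, and the members' distribution narrows from 84.2 to 97.9% within 1.25-fold when nuclei are drawn equally. All distal shared regions had 31.3% over all nuclei, and those with at least 100 counts in the drawn nuclei had 57.8%, an unlike set of regions. The members held more counts per region, and the part of this in the differences was not tested.

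Among immune-like nuclei, 0 members were at least 2-fold higher in DOX and 1 was at least 2-fold lower, where 7.55% of the distal shared regions with at least 100 counts were 2-fold apart. In hormone-sensing luminal-like nuclei 0 members were 2-fold apart, against 11.7%. In basal-like nuclei 2 members were at least 2-fold higher in DOX and 0 lower, against 7.72% that were 2-fold apart. The 5th to 95th percentiles of the members' log2 ratio ran from -0.31 to 0.26 in the immune-like, from -0.22 to 0.29 in the hormone-sensing luminal-like and from -0.38 to 0.46 in the basal-like nuclei, the class with the fewest counts. The selection was made on shares over all nuclei, in which these nuclei took part, so the counts are again a description. The part of the members' higher counts per region in these differences was not tested.

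The classes of nuclei were compared next, as a description, since the rule used the same nuclei. Clustering without the members gave 8 clusters, of which 1 was luminal progenitor-like (57 DOX and 1699 EtOH nuclei), 2 hormone-sensing luminal-like (221 and 956 nuclei together), 1 basal-like (94 and 136) and 2 immune-like (1289 and 283). Cluster 2, with 1371 DOX and 8 EtOH nuclei, met the naming rule of no list and stayed unnamed, and cluster 8 had few counts per nucleus and was left aside. The names rest on counts over marker genes, of which 3 of 8 were at least 1.5-fold above the other nuclei in the luminal progenitor-like, 4 in both hormone-sensing luminal-like, 7 in the basal-like and 6 of 8 in both immune-like clusters. The hormone-sensing marker Cited1 had no value. Some markers were below the other nuclei in the cluster named by their list. They were Ltf, Cd14 and Trf in the luminal progenitor-like cluster (log2 fold of -1.59, -0.35 and -0.15), Myh11 in the basal-like (-0.29) and Cd3e in both immune-like ones (-0.76 and -0.86). Markers of other types were above 1.5-fold as well. Both immune-like clusters had 3 of 8 luminal progenitor and 2 of 6 endothelial ones (Cdh5 and Kdr). The basal-like cluster had 3 of 6 fibroblast ones (Dcn, Col1a2 and Col3a1), 2 hormone-sensing ones (Esr1 and Pgr) and 1 endothelial one (Emcn). Single markers of other types were above it in other named clusters, such as Krt5 in 1 of the hormone-sensing luminal-like clusters. The part of these markers of other types in the results was not tested. The luminal progenitor-like class was almost wholly of the EtOH library and cluster 2 of the DOX library, so each may reflect its library. The organoids thus held nuclei with accessible immune genes in both libraries. With each nucleus thinned to 10000 fragments, the median share per member was 28.2% in luminal progenitor-like, 26.8% in hormone-sensing luminal-like, 25.7% in basal-like, 28.5% in cluster 2 and 31.1% in immune-like nuclei. At full depth 300 of the 652 members had a count in at least 50% of the nuclei of each of 9 sets of nuclei, the 4 named classes in both libraries and cluster 2 in DOX, and the others missed it in at least 1 set. Of the 6183 open TSS regions, 4832 reached it in each set. The sets differed in size and in depth, with median counts from 51289 (immune-like, EtOH) to 80922 (hormone-sensing luminal-like, DOX). The part of depth in the misses was not tested.

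Regions that reached 50% in 1 library alone were defined by the shares the rule used, and the libraries differ in their classes, so their class values follow in part from the selection. The 591 that reached it in EtOH only had a median thinned share of 29.8% in luminal progenitor-like and 1.92% in immune-like nuclei. The 345 that reached it in DOX only had 18.1 and 28.3%. The spread between the highest and the lowest of the 4 named classes, relative to their mean, had a median of 43.2% over the members, 117% over distal regions open in 25 to 50% of nuclei and 32.8% over open TSS regions, sets that were also chosen by their shares. Among the members the spread in points was smallest at a region 1813 bp upstream of Actg1, which had thinned shares of 37.15% (luminal progenitor-like), 37.98% (hormone-sensing), 37.4% (basal-like) and 37.6% (immune-like). Regions near Zfp36l1 (21.5 to 22.5%) and Znfx1 (23.4 to 24.8%) followed. It was largest at the region downstream of Axin2, at the one near Gm8797 and at the end of the ribosomal RNA locus, with 23.7, 16.7 and 43.1% in immune-like against 82.1, 65.05 and 95.7% in luminal progenitor-like nuclei.

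The members still leaned toward one class or another. The immune-like class had the highest thinned share for 376 members and the lowest for 142, and the basal-like class had the highest for 46 and the lowest for 259. These counts were made for the members only. Open TSS regions leaned the same way, with median thinned shares of 37.8% in immune-like and 29.0% in basal-like nuclei, so the lean was not particular to the members. All distal shared regions had 0.823 and 1.87%. The rule used shares over all nuclei, immune-like ones among them, and its part in the lean was not tested. The CpG-rich members had medians of 35.6% in immune-like and 29.6% in luminal progenitor-like nuclei, and those with an AP-1 motif 25.8 and 25.6%. The members with an AP-1 motif were highest in the hormone-sensing luminal-like nuclei (28.9%), while those without it had 26.1% there.

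**Figure D4:**
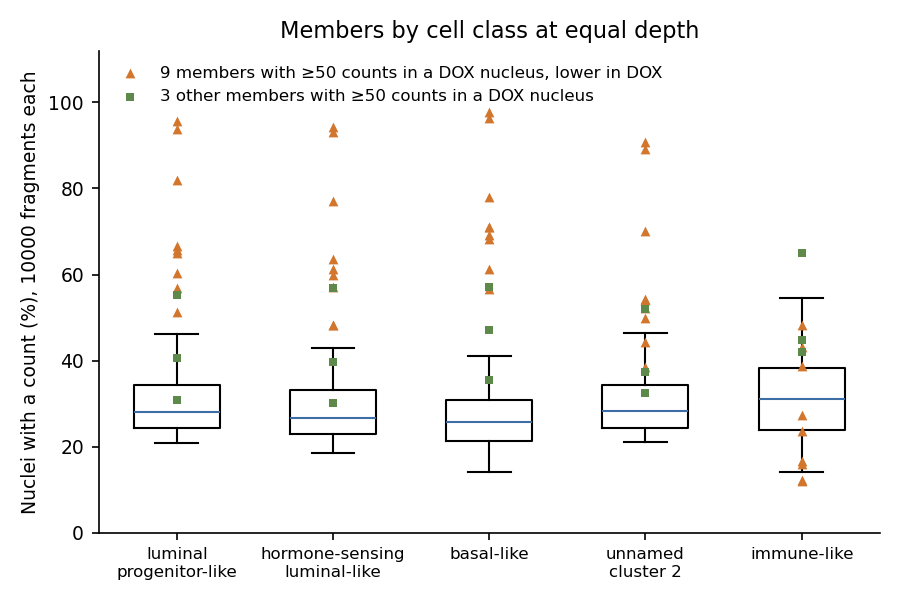
Thinned share of nuclei (y axis, percent, 10000 fragments per nucleus) by class for the 640 members with fewer than 50 counts in every DOX nucleus (boxes from the lower to the upper quartile with the median, whiskers at the 5th and 95th percentiles), with the other 12 as triangles and squares. The boxes overlap in all 5 classes, while the 9 triangles lie above the boxes' medians in the 4 other classes and 6 of them below the median in immune-like nuclei.

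A set of 12 members stood apart by the number of counts in single nuclei, a group singled out after the values were seen. Each of them reached at least 50 counts in some DOX nucleus, and the highest reached 871, whereas no other member exceeded 47 counts in DOX or 39 in EtOH. The 12 held 6.23% of the members' DOX counts and 9.82% of their EtOH counts. Of these, 2 lie at the ends of the annotated ribosomal RNA locus of chromosome 17 (39843013 to 39848827), which is a copy of the transcription unit that cells carry in long arrays. The region at its start (chr17:39842880-39843799) had 394 CPM in DOX and 638 in EtOH and was open in 83.7 and 93.3% of nuclei. The region at its end (chr17:39847853-39848606) had 403 and 704 CPM and was open in 83.6 and 94.4%.

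The 5 lowest ratios among all members belonged to this group. They were found in an exon of Lars2, which encodes the mitochondrial leucyl-tRNA synthetase (log2 -0.83), at the end of the ribosomal RNA locus (-0.81), 68229 bp downstream of Axin2 (-0.77), in an intron of Filip1l (-0.76) and in an intron of Cdk8 (-0.75). The region at the start of the ribosomal RNA locus (-0.70), regions near Gm8797 (-0.69) and Rpp21 (-0.58) and 1 upstream of Gtpbp4 (-0.39) were lower in DOX as well. The remaining 3, near Cr2, Gm21060 and Rpusd4, had log2 ratios of -0.03, 0.04 and 0.33.

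The 9 regions that were lower in DOX moved together across nuclei. Spearman's rho between the counts of each, divided by the nucleus total, and those at the end of the ribosomal RNA locus ran from 0.49 (Gtpbp4) to 0.81 (start of the locus) in DOX and from 0.52 to 0.79 in EtOH. The 640 members outside the group had a median rho of -0.02 in DOX, with a highest value of 0.45, and of 0.03 in EtOH, with a highest value of 0.22. These are correlations over nuclei of 1 library, which share its depth, and are given as a description. The other 3 regions of the group had a rho of 0.15, 0.03 and -0.02 in DOX. Apart from the 2 regions of the locus, none of the 12 shared a 25-base word with the annotated locus. Ribosomal RNA sequence outside that stretch was not compared, so a link through it was not tested. The share of 25-base words that occur elsewhere in the genome ran from 6.58% (Gm21060) to 69.0% (Gm8797) over the 12.

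All 9 were lowest in immune-like nuclei. The end of the ribosomal RNA locus had 126.5 CPM in DOX and 156 in EtOH in immune-like nuclei, against 805 in luminal progenitor-like nuclei of EtOH and 525 in cluster 2 of DOX. The Lars2 region had 18.4 and 20.98 against 85.5 and 58.6, and the Axin2 region 54.0 and 58.7 against 289 and 197. Their shares also fell short of what depth alone would give, by a median of 16.9 points in DOX and 11.3 in EtOH over the 12. With equal nuclei per cluster the log2 ratios were -0.45 at Lars2, -0.35 at the end of the ribosomal RNA locus, -0.39 at Axin2, -0.42 at Filip1l and -0.39 at Cdk8. Whether these counts come from the printed positions or from further copies was not tested.

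**Figure D5:**
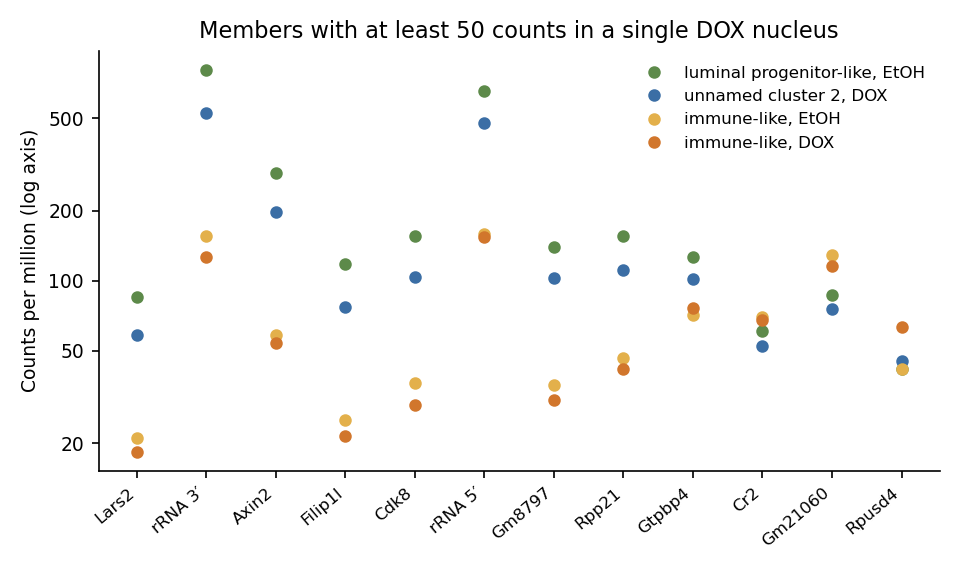
CPM (y axis, log scale) of the 12 members with at least 50 counts in a single DOX nucleus, in 4 sets of nuclei. From Lars2 to Gtpbp4 both immune-like sets lie below the luminal progenitor-like EtOH nuclei and the DOX nuclei of cluster 2, and at Cr2, Gm21060 and Rpusd4 they do not lie below both.

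Without the 12, the remaining 640 members had a median log2 ratio of 0.09 and a range of -0.65 to 0.72, with 547 (85.5%) within 1.25-fold. Of all members, 284 held no 25-base word that occurs elsewhere in the genome, the median share of such words was 0.349%, and 9 members had more than 50% of them. No member shared a word with the mitochondrial genome.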

How the data were processed

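The deposited count tables hold whole-number counts of transposition ends per peak and cell barcode, made by the authors with Cell Ranger ATAC (2.0.0 per the file headers; the study's methods name another version) on mm10, with peaks called in each library separately and not normalized. DOX had 223161 peaks and 224762118 counts, EtOH 229746 peaks and 211963715 counts, and all deposited barcodes were used. Doublets were not called, and 23 barcodes occurred in both libraries.

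Peaks overlapping by at least 1 bp were merged and their counts summed. Shares have exact Clopper-Pearson 95% intervals, and ratios have binomial intervals on the counts divided by 2, since both ends of a fragment are mostly counted (odd values were 13.8% of DOX and 14.3% of EtOH entries). With 1 library a group no test was made, and intervals cover counting error only. Ratios were described against regions with at least 100 counts. Nuclei were clustered without the members by latent semantic indexing (components 2 to 30) and Leiden clustering (resolution 0.5, 15 neighbours), and named by markers at least 1.5-fold above the other nuclei. Thinning drew 10000 fragments per nucleus and left out shallower ones. Sequences came from GRCm38 (RefSeq). Python 3.11.15, numpy 2.4.6, scipy 1.17.1, pandas 2.3.3, scikit-learn 1.9.0, igraph 0.11.9, leidenalg 0.10.2 and matplotlib 3.10.9 were used, and the scripts were tested on simulated data.

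Named by rule were the 10 members with the highest lower share, the 5 highest and 5 lowest ratios, the 5 regions on each side of the threshold, the 3 largest and 3 smallest class differences and up to 6 per gene list. The third region of Fos, the non-coding examples and the members at Gse1 and Ptma were added after their values were seen. The members and lists were chosen with earlier results of these data known.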

Additional observations from a re-analysis of the deposited data

How the results depend on the processing

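No paired analysis was possible because a single library stands for each treatment. The number of regions depended most on depth and on the thresholds. It was 120 with each nucleus thinned to 20000 counts (all of them among the 652, with 348 DOX and 360 EtOH nuclei left out), 45 with at least 3 counts asked for, 1619 at a share of 40%, 245 at 60%, 1475 without the immune-like nuclei (624 of the 652 among them) and 1248 with 1 TSS per coding gene. The median share in DOX and EtOH was 51.8 and 52.2% at 40%, 70.6 and 67.5% at 60%, 64.2 and 60.4% with 1 TSS per gene, and 28.7 and 27.5% at 10000 fragments per nucleus, an alternative added after the data were seen. The median log2 ratio was 0.22 with the median of all shared regions set to 0 and 0.015 with equal nuclei per cluster. At 40%, 2 regions were at least 2-fold apart; every other setting run for that count gave 0. A CTCF motif was found in 6.13% of members in the central 300 bp and in 11.96% over whole regions, against 7.72 and 10.4% of all distal shared regions, so the order turned. Against distal regions open in 25 to 50% of nuclei (10.2 and 14.2%) it did not turn. The number of regions stayed within 1.5 times 652 in 6 settings: 781 without nuclei under 10000 counts, 545 without the deepest 5%, 488 without regions near any TSS, 563 at 2 kb, 651 with 200 bp of overlap, and 645 without the barcodes of both libraries (added after the data were seen).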
